A study of Mus musculus with 26 samples.

Results

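The DNA replication and mitosis genes examined here are 48 mouse genes listed by symbol, out of 52636 genes with a value in each library. No measured value was used to choose them, although results of these data were already known when the list was drawn up. All 48 symbols mapped to 1 gene each, and all 48 passed the filter on low counts in every comparison. The genes fall into 8 roles: 12 genes of replication origins and the helicase, 7 of fork synthesis and joining, 3 of nucleotide supply, 7 cyclins and their partners, 4 of the spindle checkpoint and the anaphase-promoting complex, 4 of the mitotic kinases (Aurka, Aurkb and Plk1) and survivin (Birc5), 6 spindle motors and microtubule proteins, and 5 chromosome and centromere proteins.

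These genes form the machinery with which a cell copies and then divides its chromosomes. Before S phase, Cdc6 and Cdt1 load the ring of MCM proteins onto replication origins, and Cdc45 and the GINS subunits turn that ring into an active helicase. Polymerases, the PCNA clamp and ligase then follow the fork, fed by ribonucleotide reductase and thymidylate synthase. Cyclin B with CDK1, the Polo and Aurora kinases, the kinesin motors and the centromere proteins carry the cell through mitosis, and Ube2c and Cdc20 act with the anaphase-promoting complex to end it. Most of these transcripts rise and fall within each cell cycle, through E2F sites in the replication genes and through a cell cycle homology region (CHR), often close to CCAAT boxes, in the mitotic genes. In bone marrow, myeloid progenitors divide rapidly, and mast cells divide more slowly as they mature. In bulk RNA, fewer cycling cells and less transcript per cycling cell cannot be told apart.

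The study asked what loss of NSP4, a neutrophil serine protease encoded by Prss57, does to myeloid progenitors and to the mast cells derived from them. RNA was sequenced from 26 libraries of wild-type (WT) mice and Prss57-/- littermates, labelled NSP4 KO. Granulocyte-macrophage progenitors (GMPs; Lin-, SCA-1-, CD117+, CD34+, CD16/32hi) and common myeloid progenitors (CMPs; the same gate but CD16/32lo) were sorted from bone marrow, with 4 libraries per genotype and cell type, all from females. Bone marrow-derived mast cells (BMMCs) were grown from sorted GMPs in IL-3 and SCF, with 5 libraries per genotype, labelled BMMC-P3. These libraries were all from males and were sequenced in another run and pool. Cell type, culture, sex and run therefore cannot be told apart wherever BMMCs are set against progenitors. The labels do not give the age or the knockout strain of the mice. By the study's supplement, they were of its Prss57-/- strain lacking exon 2 alone. Counts per library ranged from 32078404 to 53264762 in progenitors and from 18627626 to 28647216 in BMMCs.

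The libraries fitted their labels for Prss57. Its normalized RPKM (nRPKM, a level per length of transcript) lay between 123 and 198 in the 4 WT GMP libraries and between 17.02 and 32.03 in the 4 WT CMP libraries, and no Prss57-/- progenitor library exceeded 0.178. In BMMCs the gene was near its floor in both genotypes, with 2 to 27 counts in the WT libraries and 0 in the 5 Prss57-/- libraries, so it checks those labels weakly. Marker genes fitted the cell types as well. The summed nRPKM of 8 GMP markers such as Mpo and Elane was 26937 to 40297 in GMPs against 4082 to 10207 in CMPs, 9 erythroid and megakaryocyte markers summed to 963 to 2939 in CMPs against 46.4 to 106 in GMPs, and 8 mast cell markers summed to 25409 to 74654 in BMMCs against at most 703 in progenitors. BMMC libraries also held 7 macrophage and dendritic cell markers, none of them at 0, at 1311 to 2308 nRPKM with Cd74 the most abundant, except Prss57-/- BMMC library 3 at 131. Late neutrophil markers (7 genes, S100a9 or S100a8 the most abundant) summed to 854 to 5281 in GMPs and to at most 83.4 in CMPs. Of 6 B and T cell markers Cd79b was the most abundant in all progenitor libraries, and their sum reached at most 51 nRPKM.

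Several libraries stood apart from their groups. Prss57-/- CMP library 2 had the highest erythroid and megakaryocyte sum (2939, of which Pf4 was 2561), and of the 4 Prss57-/- CMP libraries it was the highest for 16 of the 48 genes and the lowest for 27. WT CMP library 3 and Prss57-/- CMP library 1 resembled GMPs, and WT GMP library 1 resembled CMPs, in how their counts fell with gene length, which is described below, and Prss57-/- GMP library 4 lay between the cell types in this respect. Among BMMCs, WT library 1 was the highest for 47 of the 48 genes. Over all genes, Prss57-/- BMMC library 3 stood furthest apart, as the highest of the 10 libraries for 35.4% of 10567 genes and the lowest for 38.6%.

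Promoters of the genes were taken from RefSeq (GRCm38.p6, 250 bases before to 50 after the transcription start), which matched 38 of the 48. The other 10 were Aurkb, Ccna2, Ccne2, Cdc25c, Gins1, Gins2, Kif20a, Mcm4, Pole and Tpx2. Of the 38 genes, 17 (44.7%) held the CHR letters TTTGAA on either strand, against 20.2% of 27025 genes with a promoter in the table. The E2F letters TTCCCGC were in 8 (21.1% against 5.29%), TTTGGCGC in 5 (13.2% against 0.585%), and CCAAT in 29 (76.3% against 41.1%). The CHR and E2F letters divided by role. Of 18 genes of the 3 replication roles, 8 held TTCCCGC, 5 TTTGGCGC and 3 TTTGAA. Of 16 mitotic genes (the cyclin role left out), 12 held TTTGAA and none held either E2F run of letters. CCAAT was common in both, in 12 replication genes (66.7%) and 14 mitotic genes (87.5%). A match of letters describes the window and is not evidence of a bound site.

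Stretches from 150 bases before to 20 after the start are shown for 6 genes that are named in results below. Cdc20 (chr4:118437324-118437493, minus strand), Ube2c (chr2:164769779-164769948, plus strand), Kif23 (chr9:61946780-61946949, minus strand) and Mki67 (chr7:135716360-135716529, minus strand) carry TTTGAA, and Mcm6 (chr1:128359686-128359855, minus strand) and Prim1 (chr10:128015065-128015234, plus strand) carry E2F letters. Capitals mark the CHR, E2F and CCAAT letters named above, read on either strand. In Prim1 the E2F letters and the CCAAT box share 1 base.
Cdc20: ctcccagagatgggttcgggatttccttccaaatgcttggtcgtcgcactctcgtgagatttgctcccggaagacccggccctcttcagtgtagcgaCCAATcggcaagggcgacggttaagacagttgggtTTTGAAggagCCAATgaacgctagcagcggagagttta
Ube2c: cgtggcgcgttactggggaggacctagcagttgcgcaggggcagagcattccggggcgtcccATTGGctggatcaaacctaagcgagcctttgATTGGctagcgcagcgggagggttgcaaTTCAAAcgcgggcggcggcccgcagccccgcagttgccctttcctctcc
Kif23: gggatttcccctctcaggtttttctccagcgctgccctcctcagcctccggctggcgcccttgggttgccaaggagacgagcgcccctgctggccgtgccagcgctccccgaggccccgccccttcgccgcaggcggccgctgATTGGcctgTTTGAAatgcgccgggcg
Mki67: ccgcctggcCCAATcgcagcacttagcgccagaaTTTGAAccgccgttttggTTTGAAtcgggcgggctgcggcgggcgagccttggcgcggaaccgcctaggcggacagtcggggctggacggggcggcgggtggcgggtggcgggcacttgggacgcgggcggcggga
Mcm6: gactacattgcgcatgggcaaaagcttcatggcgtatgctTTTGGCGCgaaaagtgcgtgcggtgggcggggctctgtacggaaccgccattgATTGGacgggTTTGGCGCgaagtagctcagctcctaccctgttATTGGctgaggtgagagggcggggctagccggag
Prim1: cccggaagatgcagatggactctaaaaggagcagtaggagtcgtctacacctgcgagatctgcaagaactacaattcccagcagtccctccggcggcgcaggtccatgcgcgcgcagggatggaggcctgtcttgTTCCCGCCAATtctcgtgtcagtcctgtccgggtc

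The genes were abundant in both progenitors and far lower in BMMCs. The nRPKM of all 48 genes summed to 2462 to 2876 in the 16 progenitor libraries and to 369 to 927 in the 10 BMMC libraries, so the ranges were far apart. The most abundant gene in WT GMPs and WT CMPs was Mcm5, a subunit of the helicase ring, with a mean of 190 and 176 nRPKM, and the lowest was Cenpf, a kinetochore protein, with 2.04 and 1.22. In WT BMMCs the highest was Mcm3 (75.6 nRPKM) and the lowest Cdc6 (1.25 nRPKM).

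**Figure D1:**
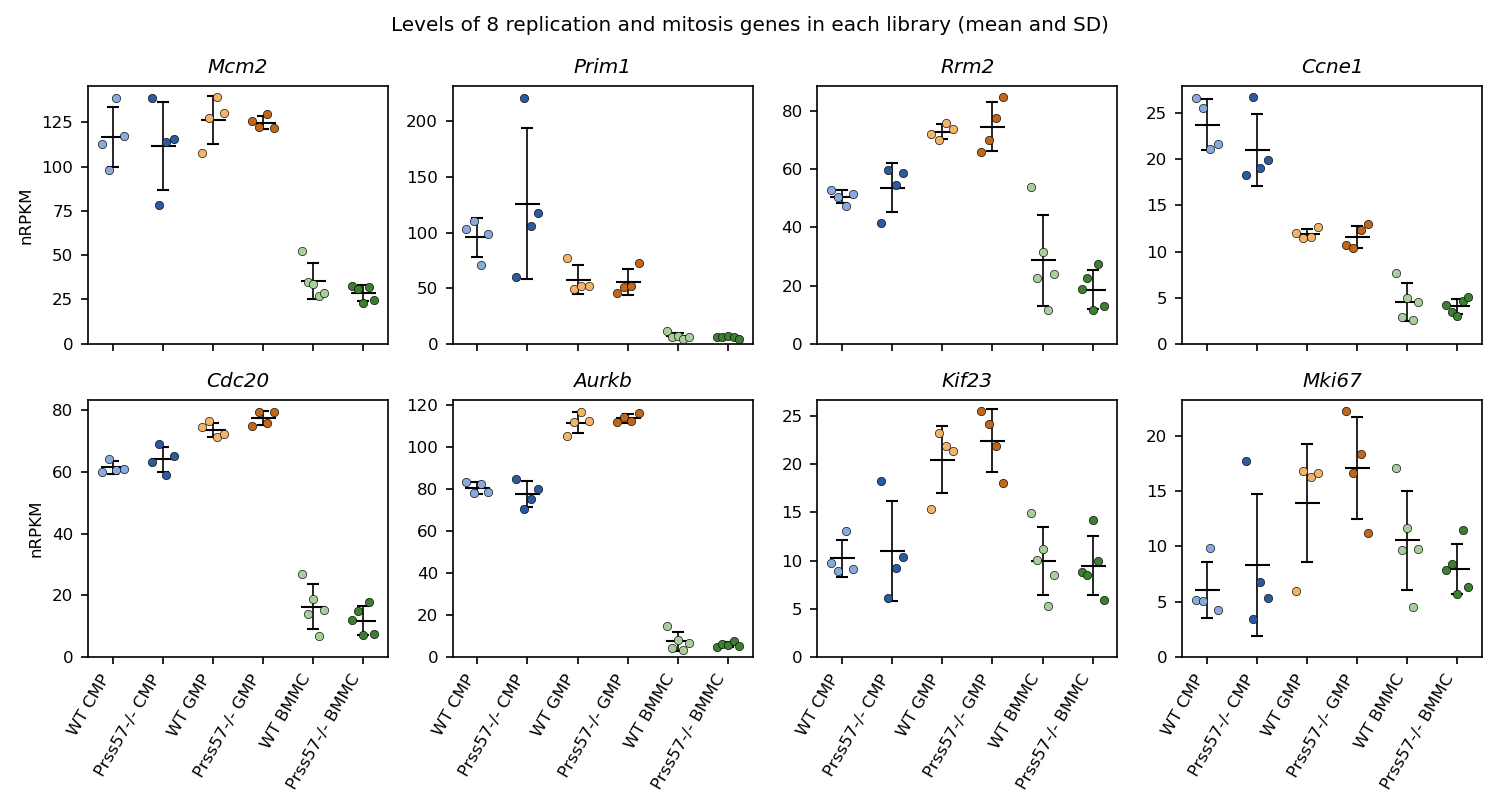
Level of 8 of the genes (nRPKM, linear axis from 0) in each of the 26 libraries, grouped by genotype and cell type, with points for libraries and a bar with error for the group mean and SD (n = 4 for CMPs and GMPs, 5 for BMMCs). Aurkb, Cdc20 and Rrm2 are higher in every GMP library than in every CMP library, Ccne1 is lower, and most of the genes are lowest in BMMCs.

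GMPs were compared with CMPs first in WT mice. Of the 48 genes, 11 were higher in WT GMPs and 1 was lower by edgeR's quasi-likelihood test at an adjusted p under 0.05 (22.9% and 2.08%), against 15.4% of 15900 genes tested that were higher and 12.5% that were lower. The genes that rose were mostly mitotic: Plk1, Aurka, Aurkb, Cdc20, Ube2c, Tpx2, Kif23 and Cenpe, with Cdc45, Cdt1 and Rrm2 from replication. Ccne1, the cyclin of the G1 to S step, fell. The median log2 fold change of the 48 genes was 0.20, beside -0.01 over all genes tested.

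Prss57-/- mice gave a second set of 8 libraries for the same comparison, fitted together with the first. There 13 of the 48 genes were higher in GMPs and 7 lower (27.1% and 14.6%), against 16.9% and 18.8% of all genes tested. All 11 genes that rose in WT GMPs also rose in Prss57-/- GMPs, Ccne1 fell in both, and 45 of the 48 had the same sign. The matching shares of all genes were not counted, so whether this agreement is particular to the 48 genes cannot be told. Bub1b and Kif20a joined the genes that rose, and Pcna, Prim1, Rfc4, Ccne2, Ccnb2 and Cenpa joined Ccne1 among those that fell. The median was 0.33, beside -0.03 over all genes tested, and 0.20 without Prss57-/- CMP library 2.

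**Figure D2:**
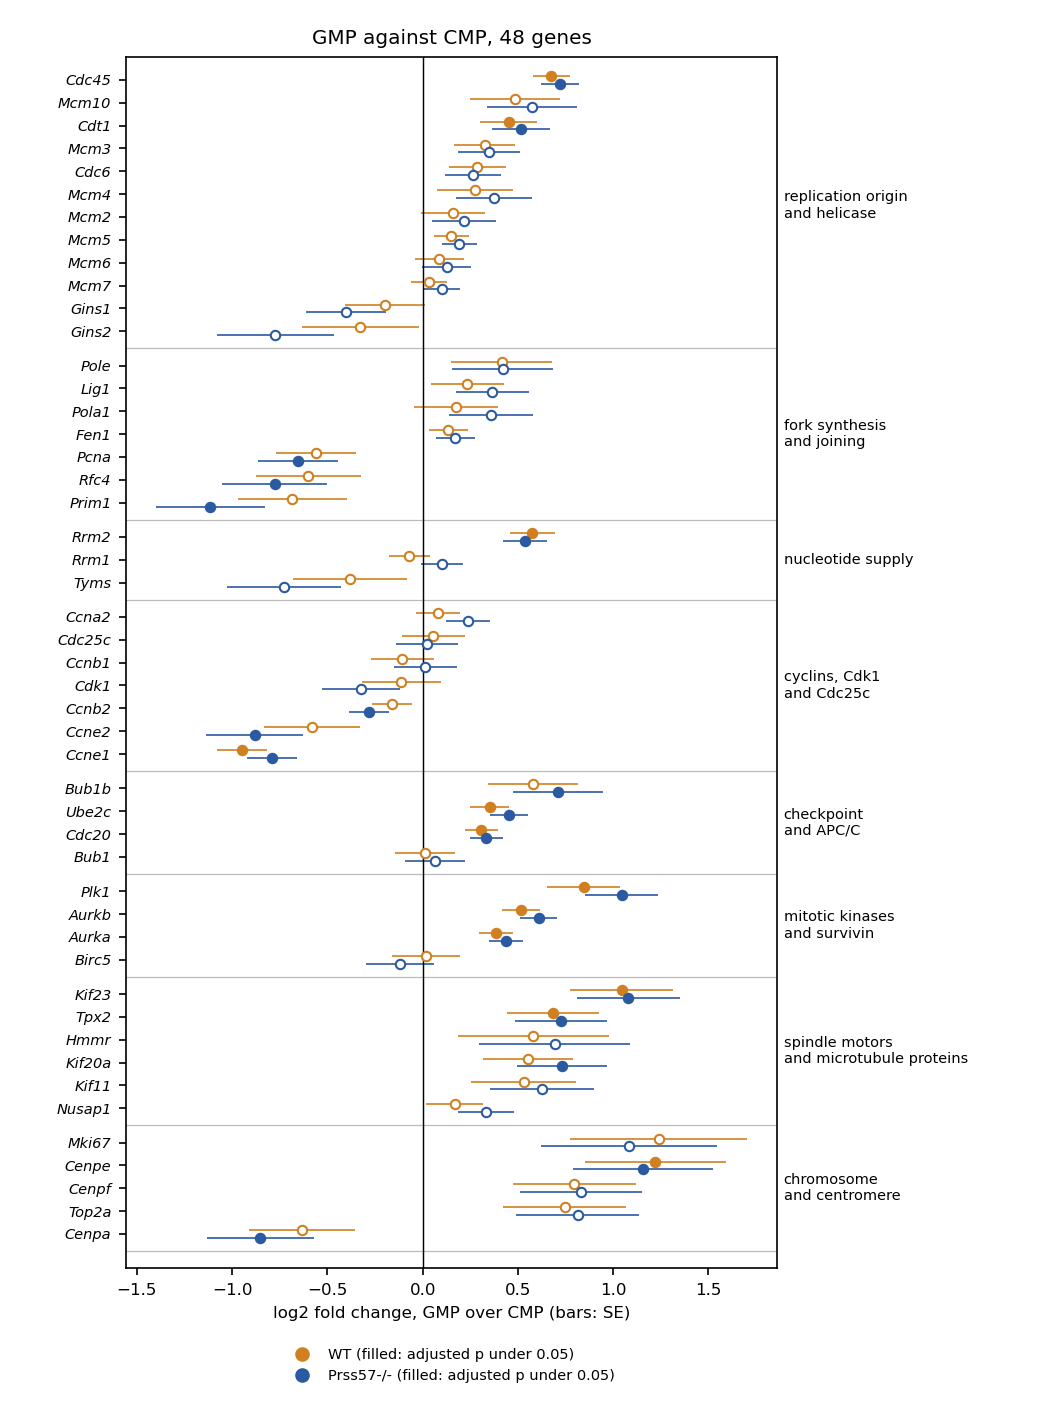
Log2 fold change of GMP over CMP for the 48 genes in their 8 roles, in WT (orange) and Prss57-/- (blue) mice, with bars for the SE and filled points for an adjusted p under 0.05 (edgeR). The kinases Plk1, Aurkb and Aurka, the motor Kif23 and Cdc45 lie to the right in both genotypes, and Ccne1 lies to the left in both.

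The counts depended on the scaling and on single libraries. With library size alone in place of the trimmed mean of M-values (TMM), the median of all genes tested shifted to -0.17 in WT and that of the 48 genes to 0.04, so that their distance was about as before. Counted against 0, 3 genes (Cdc45, Rrm2 and Plk1) were higher in WT GMPs and 7 lower, beside 1426 and 3368 of all 15900 genes. In Prss57-/- mice 7 were then higher and 9 lower, beside 1603 and 3517 of all genes. With the libraries of the 2 groups alone in the fit, 16 were higher and 6 lower in WT, and 7 higher and 2 lower in Prss57-/-. The share of all genes called moved too, from 27.9% to 37.8% in WT and from 35.7% to 21.5% in Prss57-/-. Without Prss57-/- CMP library 2 the Prss57-/- counts became 10 higher and 2 lower, and without Prss57-/- CMP library 1 they became 27 and 11. The share of all genes called was then 25% and 52.2%. Leaving out Prss57-/- GMP library 1, 2 or 3 gave 9, 10 and 9 higher and 3 lower each time. Of all genes, 24.3%, 25.5% and 24.1% were then called.

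Among the genes of origins and the helicase, Cdc45, which joins the MCM ring to make the active helicase, was the most raised. Its level was 31.9, 33.4, 35.2 and 37.1 nRPKM in WT CMPs and 50.5, 54.7, 53.0 and 54.6 in WT GMPs. The groups did not overlap, and the log2 fold change was 0.68 (SE 0.10, adjusted p = 8.43e-05 by edgeR). In Prss57-/- mice it was 0.72 (SE 0.10, adjusted p = 5.07e-05). Cdt1, the loader of the MCM ring, rose by 0.45 (SE 0.15) and 0.52 (SE 0.15) on the log2 scale. Its WT call was lost with library size alone and with no filter. Leaving out WT CMP library 1, 2 or 4 or WT GMP library 2, 3 or 4 lost it as well.

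The 6 subunits of the MCM ring itself did not pass the test in either genotype in the main fit. In Prss57-/- mice DESeq2 called Mcm5 higher, and the fit without Prss57-/- CMP library 1 called Mcm3 and Mcm4 higher. Mcm2 was measured at 113, 98.2, 139 and 117 nRPKM in WT CMPs and at 108, 128, 139 and 130 in WT GMPs, with overlapping groups (log2 fold change 0.16, SE 0.17, adjusted p = 0.49 by edgeR). Mcm7, the gene of this role with the smallest change, had 65.4, 68.3, 65.6 and 66.8 nRPKM in WT CMPs and 65.9, 64.4, 67.6 and 65.9 in WT GMPs. Its log2 fold change was 0.03 (SE 0.09), with the libraries of both cell types interleaved. Across Mcm2 to Mcm7 the changes ran from 0.03 to 0.32 in WT and from 0.10 to 0.37 in Prss57-/- mice.

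At the fork the values pointed both ways. Prim1, the primase subunit that starts each new strand, was at 103, 110, 70.4 and 98.6 nRPKM in WT CMPs and at 77.5, 49.2, 52.2 and 51.97 in WT GMPs. WT CMP library 3 was the low one and WT GMP library 1 the high one, and the groups overlapped there. The log2 fold change was -0.68 (SE 0.29, adjusted p = 0.086 by edgeR) in WT mice, and Prim1 fell in Prss57-/- GMPs (-1.11, SE 0.29, adjusted p = 0.00811). In Prss57-/- CMPs it was 60.2, 221, 105 and 117 nRPKM, and library 2 was the high one. Pcna, the sliding clamp of the polymerases, was at 27.1, 26.2, 21.8 and 30.3 nRPKM in WT CMPs and 18.5, 15.6, 18.2 and 16.9 in WT GMPs. These groups did not overlap, and the fit gave -0.56 (SE 0.21, adjusted p = 0.056). Fen1, the flap nuclease, differed least, at 0.13 (SE 0.10).

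Of the nucleotide supply genes, Rrm2, the S phase subunit of ribonucleotide reductase, rose. Its level was 52.8, 50.5, 47.4 and 51.5 nRPKM in WT CMPs and 72.01, 70.01, 76.1 and 73.8 in WT GMPs, a log2 fold change of 0.58 (SE 0.12, adjusted p = 0.00138 by edgeR). Rrm1, the other subunit of the same enzyme, was at 137 to 159 nRPKM in WT CMPs and 134 to 144 in WT GMPs, with a log2 fold change of -0.07 (SE 0.11). Every WT GMP library thus lay above every WT CMP library for Rrm2, while the ranges of Rrm1 overlapped.

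Ccne1, cyclin E1, was the 1 gene of the 48 that fell in WT GMPs. Its level was 26.7, 25.6, 21.1 and 21.7 nRPKM in WT CMPs and 11.99, 11.5, 11.5 and 12.6 in WT GMPs. No library of one group reached the other, and the log2 fold change was -0.95 (SE 0.13, adjusted p = 4.86e-05 by edgeR) in WT and -0.79 (SE 0.13, adjusted p = 0.000277) in Prss57-/- mice. The mitotic cyclins Ccna2 and Ccnb1 and their kinase Cdk1 did not pass in either genotype, with changes of 0.08, -0.11 and -0.11 in WT. Cdc25c, the phosphatase that activates CDK1, changed least in this role (0.06, SE 0.16).

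The mitotic kinases rose in both genotypes. Aurkb, the kinase of the chromosomal passenger complex, was at 83.4, 77.8, 82.3 and 78.3 nRPKM in WT CMPs and 105, 112, 117 and 112 in WT GMPs. The groups were well apart, and the log2 fold change was 0.52 (SE 0.10, adjusted p = 0.00087 by edgeR). Plk1, Polo-like kinase 1, was at 38.2, 36.03, 47.1 and 37.4 nRPKM in WT CMPs and 53.7, 73.9, 74.1 and 74.5 in WT GMPs, a log2 fold change of 0.85 (SE 0.19, adjusted p = 0.00342). WT GMP library 1 was the low one here, yet still above every CMP library. Birc5, survivin, which sits in the same complex as Aurkb, did not pass the test, at 0.02 (SE 0.18) in WT and -0.12 (SE 0.18) in Prss57-/- mice.

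Of the checkpoint genes, Cdc20, the activator of the anaphase-promoting complex, was at 59.9, 64.3, 60.5 and 60.9 nRPKM in WT CMPs and 74.4, 76.4, 71.4 and 72.2 in WT GMPs. Small as the step was, the groups did not overlap (log2 fold change 0.31, SE 0.09, adjusted p = 0.0145 by edgeR), and Ube2c, the ubiquitin carrier of the complex, rose by 0.35 (SE 0.10) on the log2 scale. Bub1b, a checkpoint protein that holds Cdc20 in check, was at 26.5, 28.4, 38.4 and 29.3 nRPKM in WT CMPs and 33.2, 50.5, 47.6 and 46.4 in WT GMPs. Only WT CMP library 3 and WT GMP library 1 brought the groups together (log2 fold change 0.58, SE 0.24, adjusted p = 0.080 by edgeR). Bub1 changed by 0.01 (SE 0.16).

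The log2 fold changes of the 6 spindle genes ran from 0.17 to 1.05 in WT mice, and Kif23 and Tpx2 passed the test in both genotypes. The WT call of Tpx2 was lost with library size alone and with no filter. It was also lost without WT CMP library 1, 2 or 4 or WT GMP library 2, 3 or 4. Kif23, a kinesin of the central spindle, was at 9.76, 8.96, 13.1 and 9.11 nRPKM in WT CMPs and 15.4, 23.3, 21.9 and 21.4 in WT GMPs. The log2 fold change was 1.05 (SE 0.27, adjusted p = 0.00855 by edgeR), and the groups did not overlap. Nusap1, which bundles spindle microtubules, changed least, by 0.17 (SE 0.15).

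Mki67 and Cenpe, of the chromosome and centromere genes, had the largest fold changes of the 48 in WT mice, with wide errors. Mki67, the proliferation marker that coats mitotic chromosomes, was at 5.15, 5.10, 9.87 and 4.23 nRPKM in WT CMPs and 5.95, 16.8, 16.2 and 16.7 in WT GMPs. WT GMP library 1 lay among the CMP libraries. The log2 fold change was 1.24 with an SE of 0.47 (adjusted p = 0.058 by edgeR), and an exact two-sided permutation test on nRPKM gave p = 0.0571, where 0.0286 is the smallest that 4 against 4 allows. Top2a, the topoisomerase that untangles sister chromatids, was at 44.2, 43.1, 63.4 and 35.2 nRPKM in WT CMPs and 49.7, 81.8, 84.6 and 85.99 in WT GMPs (0.75, SE 0.32, adjusted p = 0.098 by edgeR). Cenpa, the centromeric histone, went the other way, at 193, 170, 114 and 158 nRPKM in WT CMPs and 128, 88.2, 91.2 and 89.5 in WT GMPs (-0.63, SE 0.28, adjusted p = 0.10). Cenpe, a kinetochore motor, rose by 1.22 (SE 0.37) and 1.16 (SE 0.37) in the 2 genotypes, from levels of 1.14 to 2.32 nRPKM in WT CMPs.

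Gene length moved with these values. For each progenitor library, the deviation of log2 scaled counts from the mean of the 16 libraries was regressed on log2 exon length, over the 11431 genes whose mean count reached 100. This length slope was -0.11, -0.10, 0.10 and -0.14 in WT CMPs, 0.17, -0.40, -0.06 and -0.13 in Prss57-/- CMPs, -0.09, 0.14, 0.11 and 0.12 in WT GMPs, and 0.22, 0.10, 0.10 and -0.04 in Prss57-/- GMPs, in log2 units per doubling of length. Long transcripts were therefore fewer in most CMP libraries, and the exceptions were WT CMP library 3 and Prss57-/- CMP library 1. Prss57-/- GMP library 4 had the lowest slope of its group, with Mki67 at 11.2 nRPKM against 16.6 to 22.2 in the other 3 and Prim1 at 72.8 against 45.8 to 51.9. The WT comparison was also split by exon length, over the tested genes that averaged 100 counts or more. Their median log2 fold change was -0.17 for lengths up to 3000 bases (3637 genes) and 0.26 for lengths over 5000 (4786 genes). For the 48 genes it was 0.22 (12 genes) and 0.48 (15 genes). At the lengths between, which held 21 of the 48, it was 0.09, beside 0.06 for the tested genes that averaged 100 counts or more. The members' medians thus did not rise steadily with length.

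Within Prss57-/- CMPs, Mki67 (10061 exon bases) was at 17.7, 3.44, 6.78 and 5.39 nRPKM, in the same order as the length slopes. Prim1 (3868 exon bases, 60.2 to 221 nRPKM) took the reverse order. Aurkb (2946 exon bases) was at 84.7, 70.2, 75.2 and 79.9 nRPKM there, below all of the GMP libraries. When a curve of each library's deviations on length was removed, in an alternative added after seeing the data, 13 of the 48 genes were higher in WT GMPs and 4 lower, and the 11 genes that rose before and Ccne1 kept their calls. Mki67 and Bub1b then rose (Mki67 0.94, SE 0.31, adjusted p = 0.027 by edgeR), and Rfc4, Pcna and Rrm1 fell. In Prss57-/- mice 16 were higher and 7 lower, with the same 13 among those higher. Of all 15882 genes tested with the curve removed, 2716 were higher and 2608 lower in WT GMPs. In Prss57-/- GMPs these were 2980 and 3316. The part of these slopes in the differences was not tested further.

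**Figure D3:**
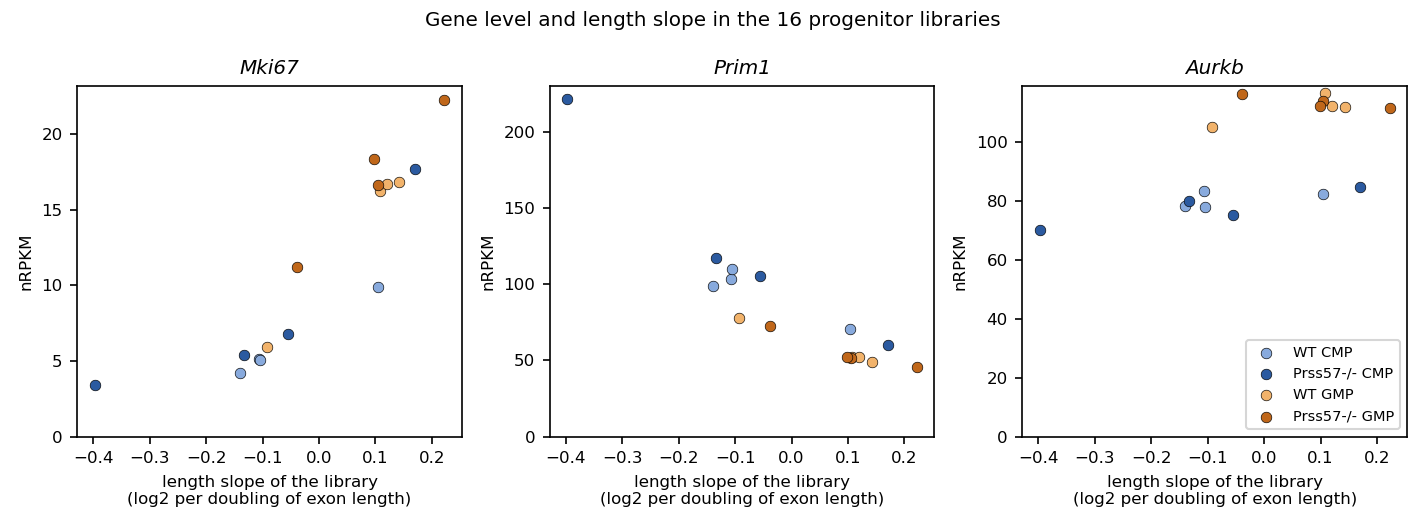
Level (nRPKM, axis from 0) of Mki67, Prim1 and Aurkb in the 16 progenitor libraries against each library's length slope (log2 per doubling of exon length), coloured by group. Mki67 rises and Prim1 falls with the slope in both cell types, while Aurkb is higher in each GMP library than in each CMP library. The slopes of the cell types overlap only in part, since 5 CMP libraries lie below all GMP libraries.

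Other genes of the same processes were counted from separate lists, drawn up with earlier results known. Of 38 further mitosis genes, 9 rose and none fell in WT GMPs, with a median log2 fold change of 0.37. The 3 with the smallest p were Cep55, which acts in the final cut between daughter cells (0.63, SE 0.15), Racgap1, a partner of Kif23 at the central spindle (0.46, SE 0.11), and Tacc3, a spindle microtubule protein (0.36, SE 0.09). Of 32 further replication genes none rose and 3 fell, a smaller share than the 12.5% of all genes that were lower, with a median of -0.16. The 3 were Chaf1b, a histone chaperone subunit (-0.45, SE 0.09), and the origin recognition subunits Orc2 (-0.56, SE 0.14) and Orc1 (-0.39, SE 0.12). In Prss57-/- mice the counts were 14 higher and 3 lower for mitosis, and 3 higher and 11 lower for replication. Of all genes tested, 15.4% were higher and 12.5% lower in WT GMPs, and 16.9% and 18.8% in Prss57-/- GMPs.

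Of 10 E2F and mitotic transcription factors, 3 rose in WT GMPs and none fell: Mybl2 (0.82, SE 0.20), Foxm1 (0.93, SE 0.30), both activators of mitotic genes, and Tfdp1, a partner of E2F proteins (0.37, SE 0.10). The same counts, 3 and 0, were found in Prss57-/- mice. Of 14 quiescence and arrest genes, 4 fell and 2 rose in WT GMPs, where 12.5% of all genes were lower and 15.4% higher, so that the rise was near the background share. Txnip, which binds thioredoxin (-1.10, SE 0.13), Tob1, an antiproliferative factor (-0.69, SE 0.17), and the CDK inhibitors Cdkn1b (-0.52, SE 0.15) and Cdkn1c (-1.53, SE 0.45) fell, and Btg1, an antiproliferative factor (0.56, SE 0.11), and Cdkn2c, an inhibitor of CDK4 and CDK6 (0.59, SE 0.16), rose. Of 67 replication-dependent histone genes, 37 passed the filter, and none rose and 3 fell (Hist2h2be, Hist3h2ba and Hist1h2bc), a smaller share than the 12.5% of all genes that were lower. Many of these genes are near-identical copies, so their counts are uncertain. Their summed level was 51.8 to 141 nRPKM in all WT progenitor libraries, and 373 in Prss57-/- CMP library 2 against 77.9 to 94.0 in the other 3 libraries of its group.

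Loss of NSP4 was then examined within each cell type. None of the 48 genes passed in GMPs, CMPs or BMMCs by edgeR, by limma voom or by DESeq2, and none had an unadjusted p under 0.05 by edgeR. In all genes tested, 0.0136% were called in GMPs (2 of 14689), 0.0067% in CMPs (1 of 14916) and 0% in BMMCs (0 of 13938), and 0.81%, 0.51% and 2.38% had an unadjusted p under 0.05. The median log2 fold change of the 48 genes, Prss57-/- over WT, was 0.04 in GMPs (range -0.19 to 0.40) and 0.02 in CMPs (range -0.20 to 0.44). The CMP median had no stable sign, and came to -0.03 with voom, -0.05 with library size alone, -0.04 without WT CMP library 4 and -0.15 without Prss57-/- CMP library 1. The difference between the genotypes in the GMP to CMP change was called for none of the 48 genes, and for 0 of all 15900 genes tested (0%, with 1.06% at an unadjusted p under 0.05 by edgeR). It ran from -0.45 to 0.20 over the 48 genes.

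The genes with the smallest p still had overlapping groups. In GMPs these were Cenpf (0.40, SE 0.23), Pola1, the catalytic subunit of the priming polymerase (0.17, SE 0.12), and Ccne2, cyclin E2 (-0.19, SE 0.15). In CMPs they were Ccne1 (-0.20, SE 0.16), Prim1 (0.37, SE 0.34) and Gins2, a GINS subunit (0.39, SE 0.37). Without Prss57-/- CMP library 2, Prim1 and Gins2 came to -0.04 and -0.09. The adjusted p by edgeR was over 0.99 for each of the 48 genes in these 2 cell types.

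In BMMCs, 46 of the 48 genes lay below 0 in Prss57-/- over WT, with a median of -0.36, beside 0.01 and 47.7% below 0 over all genes tested. None was called. The smallest p belonged to Pola1 (-0.32, SE 0.17), Mcm3 (-0.20, SE 0.11) and Rfc4, a subunit of the clamp loader (-0.29, SE 0.16), with an unadjusted p of 0.0863, 0.1003 and 0.103 by edgeR. The SE over the 48 genes ran from 0.11 for Mcm3 to 0.47 for Ccnb1. The size of this shift depended on single libraries. The genes' summed level was 927, 526, 625, 369 and 548 nRPKM in WT BMMC libraries 1 to 5, and 491, 508, 431, 596 and 415 in Prss57-/- libraries. WT library 1 was the highest and WT library 4 the lowest of all 10, and the Prss57-/- libraries lay between them. Without WT library 1 the median was -0.12, without WT library 4 it was -0.53, and without Prss57-/- library 3 it was -0.29. Leaving out Prss57-/- library 3 also moved the number of all genes with an unadjusted p under 0.05 by edgeR from 332 to 1031, with 0 genes called.

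The 48 genes moved together between BMMC cultures. WT library 1 was the highest for 47 of them, the exception being Mcm6 with Prss57-/- library 3, whereas it was the highest for 12.1% of the 10567 genes whose mean BMMC count reached 100. WT library 4 was the lowest for 35, against 7.88% of all genes. Prss57-/- library 3, the highest or lowest for most of all genes, was the highest for 1 of the 48 and the lowest for 7. Mki67 was at 17.1, 9.66, 11.6, 4.56 and 9.78 nRPKM in the WT libraries and 7.84, 8.40, 5.75, 11.5 and 6.33 in the Prss57-/- libraries. Plk1 was at 18.99, 9.34, 12.3, 3.77 and 8.66, and 7.85, 9.52, 4.57, 10.7 and 5.43, with the same WT libraries at the top and bottom. The highest WT library exceeded the lowest by 3.18-fold for the median of the 48 genes, and by 1.26-fold for the median of all genes above that count. In Prss57-/- BMMCs these were 1.76 and 1.54.

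**Figure D4:**
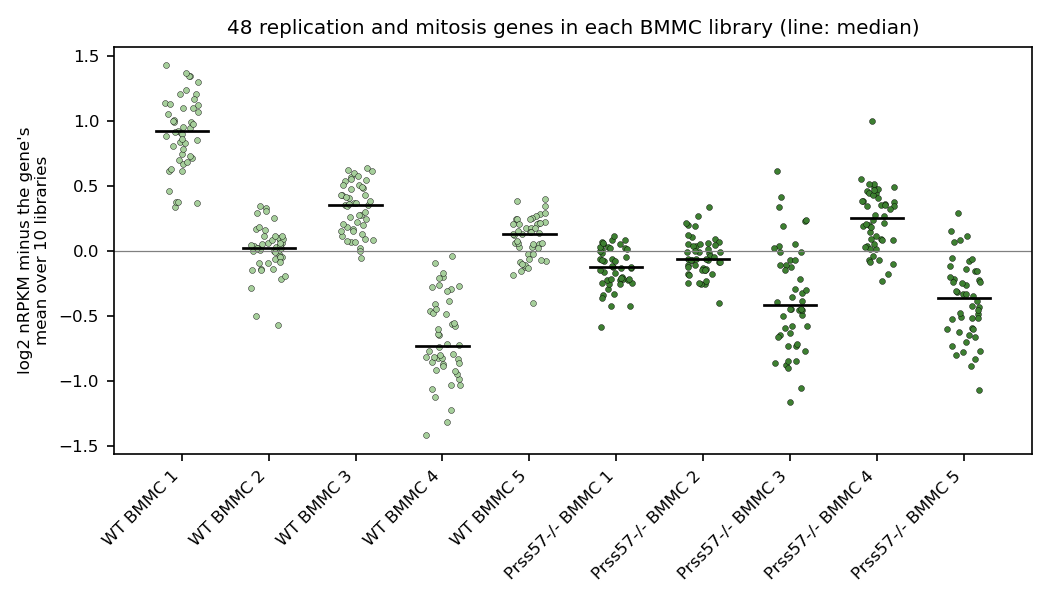
Each of the 48 genes in each of the 10 BMMC libraries, as log2 nRPKM minus the gene's mean over the 10 libraries, with a line for the median of the 48 genes. WT library 1 lies above and WT library 4 below the other libraries, and the Prss57-/- libraries lie between.

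Last, WT BMMCs were set against WT progenitors. Against WT GMPs, 44 of the 48 genes were lower and none was higher by edgeR at an adjusted p under 0.05 (91.7%), against 36% of 16758 genes tested that were lower and 35.3% that were higher. The median log2 fold change was -2.21, beside -0.03 over all genes. Against WT CMPs, 40 were lower and 2 higher (83.3% and 4.17%), against 38.2% and 37.2%, with a median of -2.08. By stricter limits, an adjusted p under 0.01 and at least a 2-fold change, 43 genes passed against GMPs, all of them lower, and 39 against CMPs, 38 lower and 1 higher. Of all 16758 genes tested, 7928 and 8941 passed these limits, in either direction.

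By median, the genes of origins and the helicase and the mitotic kinases with survivin were the roles furthest below WT GMPs (-2.88 and -2.84), and the chromosome and centromere genes the nearest (-0.48). All 12 genes of origins and the helicase were lower than in WT GMPs. Mcm5 was at 172, 180, 174 and 180 nRPKM in WT CMPs and 191, 181, 196 and 191 in WT GMPs, and at 32.3, 17.7, 20.6, 12.1 and 17.6 in WT BMMCs. Even the highest BMMC library was far below the lowest progenitor library, and the log2 fold change against GMPs was -3.32 (SE 0.18, adjusted p = 8.38e-14 by edgeR). Mcm3 fell least of the ring subunits, by 1.33 (SE 0.14) on the log2 scale, and kept 90.9, 74.6, 71.4, 68.4 and 72.8 nRPKM in WT BMMCs. All 7 fork genes, all 3 nucleotide supply genes and all 7 cyclin genes were lower against both progenitors. Prim1 was at 10.995, 6.27, 6.84, 4.19 and 5.73 nRPKM.

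Aurkb had the largest fall of the 48 genes against GMPs, to 14.7, 4.20, 8.27, 3.43 and 6.83 nRPKM in WT BMMCs (-3.97, SE 0.27, adjusted p = 5.48e-12 by edgeR). Its values in Prss57-/- BMMCs were 4.97, 6.21, 5.80, 7.81 and 5.28. The 3 mitotic kinase genes, Birc5 and all 4 checkpoint genes were lower against both progenitors. The spindle and chromosome genes fell less. Of their 11 members, 7 were lower than in WT GMPs, where 36% of all genes were lower. Against WT CMPs 3 of the 11 were lower, no larger a share than the 38.2% of all genes. That count depended on the setting. Top2a and Tpx2 were also lower with voom or with library size alone. With the length curve removed, Kif11, Top2a, Cenpf, Tpx2 and Kif23 were also lower. Hmmr, Mki67, Cenpe and Cenpf were the 4 not called against GMPs, at -0.44 (SE 0.38), -0.48 (SE 0.41), 0.16 (SE 0.36) and 0.01 (SE 0.31). Most of the 11 have over 5000 exon bases. Against WT GMPs, tested genes averaging 100 counts or more had a median of 0.42 over 5000 bases and -0.71 up to 3000. For the 48 genes these medians were -1.33 and -2.50. With the length curve removed, Hmmr, Mki67 and Cenpf were also lower than in WT GMPs. The part of length in the smaller fall was not tested.

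Cenpe and Cenpf were the 2 genes called higher than in WT CMPs, by 1.34 (SE 0.37) and 0.76 (SE 0.32). Cenpf was no longer called with voom (0.71), with library size alone (0.44), or without WT CMP library 2 (0.63) or 4 (0.73) or WT BMMC library 1 (0.64) or 3 (0.72). Cenpe was at 6.03, 4.22, 4.44, 1.92 and 4.06 nRPKM in WT BMMCs, and the lowest of these lay within the WT CMP range. These are long genes (8620 and 15433 exon bases). In this comparison, the tested genes that averaged 100 counts or more had a median of 0.64 for lengths over 5000 bases (4838 genes). For lengths up to 3000 bases (3685 genes) their median was -0.88. With the length curve removed, Cenpf turned to -0.81 (SE 0.24, adjusted p = 0.00398 by edgeR), Cenpe came to 0.44 (SE 0.28, adjusted p = 0.16), and no gene was higher. The counts of genes that were lower became 47 against GMPs and 45 against CMPs, beside 6403 and 6624 of all 16737 genes.

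**Figure D5:**
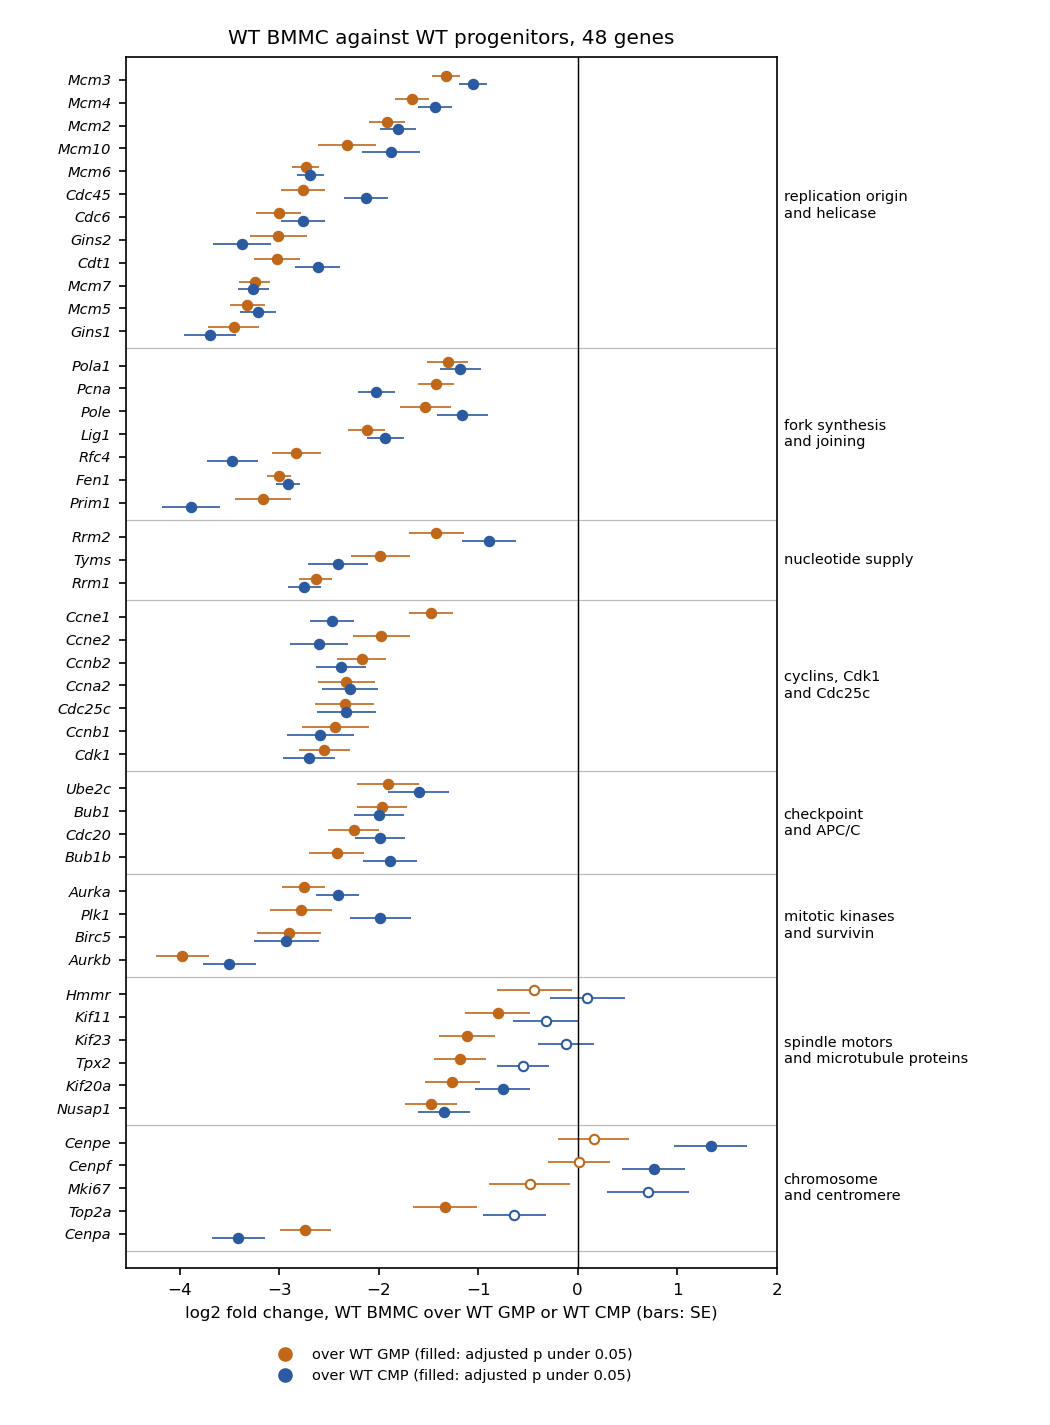
Log2 fold change of WT BMMC over WT GMP (orange) and over WT CMP (blue) for the 48 genes in their 8 roles, with bars for the SE and filled points for an adjusted p under 0.05 (edgeR). Aurkb, Prim1 and Gins1 lie furthest to the left, and Hmmr, Mki67, Cenpe and Cenpf lie near 0 or to the right.

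The other lists followed. All 32 further replication genes were lower in WT BMMCs than in WT GMPs, as were 32 of the 38 further mitosis genes, with none higher, and 7 of the 10 transcription factors, with 1 higher (Lin54), where 36% of all genes were lower and 35.3% higher. Against WT CMPs, 31 of the 32 and 26 of the 38 were lower and Smc2 and Smc4, condensin subunits, were higher. Mybl2 fell from 14.4 to 19.1 nRPKM in WT GMPs to 0.666 to 3.49 in WT BMMCs (log2 fold change -3.37, SE 0.32). Of the 14 quiescence and arrest genes, 9 were higher and 3 lower than in WT GMPs, and 8 were higher and 5 lower than in WT CMPs, where 37.2% of all genes were higher and 38.2% lower. Cdkn1a, the CDK inhibitor p21, chosen here after its values were seen, was at 5.23 to 6.89 nRPKM in WT GMPs and 378 to 444 in WT BMMCs, with 409 to 586 in Prss57-/- BMMCs (log2 fold change of WT BMMC over WT GMP 6.07, SE 0.22, adjusted p = 1.5e-16 by edgeR). Its groups were far apart, and its spread between BMMC libraries was small beside that of the 48 genes. Txnip rose from 37.4 to 47.6 nRPKM in WT GMPs to 394 to 526 in WT BMMCs (3.40, SE 0.14). Of the 37 histone genes that passed the filter, 26 were lower and 6 higher. Their summed level in BMMCs was mostly Hist1h1c, which held 156 to 199 of 190 to 240 nRPKM in the WT libraries.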

How the data were processed

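The deposited files hold, for each gene and library, a read count and a normalized RPKM (nRPKM). Per the labels and the study's methods, the authors made 50-base single-end reads from stranded total RNA libraries, aligned them to GRCm38 with GSNAP, counted uniquely aligned reads within exons, and scaled the RPKM by size factors. Gene symbols, positions and exon lengths came from GENCODE M21 (52489 of 52636 genes matched). Counts as deposited were tested with edgeR 4.0.16 (quasi-likelihood, robust, TMM, filterByExpr) and p-values adjusted by Benjamini-Hochberg over all genes tested. GMP and CMP contrasts used 16 libraries in 1 fit, genotype contrasts each cell type's libraries alone, and BMMC against progenitor contrasts all 26. Levels are the deposited nRPKM. Alternatives were limma 3.58.1 voom, DESeq2 1.42.0, other scaling, no filter, other sets of libraries, a replicate block, each library left out and, added after seeing the data, a length curve removed. The fits were tested on simulated data. The members and lists were chosen with earlier results of these data known. Genes named by value were those with the largest and the smallest change of WT GMP against WT CMP in each role, with Mcm2, Pcna, Mki67 and Top2a, the 3 with the smallest p in each genotype comparison, and, from each other list, the 3 with the smallest p in WT GMP against WT CMP and any called against the list's median. The other genes named were chosen after their values were seen. Replicates are separate samples by label, and p-values measure the spread between them.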

Additional observations from a re-analysis of the deposited data

Results flagged for a closer look

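For 19 of the 48 genes, those named by the rule on size of change, each of the 6 groups was searched for a library far from the others, by Dixon's ratio of gap to range at the 95% limit. Of 114 combinations, 8 (7.02%) passed, where chance gives about 1 in 20. WT GMP library 1 gave 5 of the 8: Prim1 at 77.5 nRPKM and Cenpa at 128 nRPKM lay far above the other WT GMP libraries, and Plk1 at 53.7, Mki67 at 5.95 and Top2a at 49.7 lay far below them. Without that library, 15 of the 48 genes were higher and 2 lower in WT GMPs than in WT CMPs. The share of all genes called rose too, from 27.9% to 30.8%. It had a length slope of -0.09 beside 0.11 to 0.14 in the other 3 libraries of its group, and the highest late neutrophil marker sum of that group (3370 nRPKM), and their part in its values was not tested. Mki67 in WT CMP library 3 lay far above its group at 9.87 nRPKM, and that library had a length slope of 0.10. Mcm7 in Prss57-/- GMP library 1, at 62.2 nRPKM, lay below its group, and Cdc45 in Prss57-/- BMMC library 4, at 8.89 nRPKM, lay above its group.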

How the results depend on the processing

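The total BMMC against progenitor counts stayed within 1.5 times under all 18 alternatives each, but the 2 genes higher than in WT CMPs became 1 with voom or library size alone, 0 with the length curve, and 1 to 3 on leaving out 1 library, and the genotype and interaction counts were 0 under all of theirs. Leaving out 1 library gave 43 to 44 genes against GMPs and 41 to 43 against CMPs.

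For GMP against CMP, the 12 genes called in WT became 22 with the libraries of the 2 groups alone and 1 under an adjusted p under 0.01 with a 2-fold change, and leaving out 1 library gave 8 to 17. The 20 called in Prss57-/- mice became 9 and 3, and leaving out 1 library gave 12 to 38. The share of all genes called then ran from 19.9% to 30.8% in WT and from 24.1% to 52.2% in Prss57-/- mice. Splits of 11 higher and 1 lower, and of 13 and 7, became 3 and 7, and 7 and 9, with library size alone, 13 and 2, and 17 and 9, with DESeq2, and 7 and 1, and 11 and 6, with no filter.

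Some genes changed sign. For WT GMP against WT CMP, library size alone gave -0.13 for Mcm7, -0.15 for Bub1, -0.10 for Cdc25c, -0.029 for Fen1, -0.14 for Birc5 and -0.0049 for Mcm2. The length curve gave -0.010 for Mcm7, -0.023 for Bub1, -0.018 for Cdc25c and -0.020 for Mcm2. RLE size factors gave -0.0092 for Bub1 and -0.0070 for Birc5, DESeq2 gave -0.0094 and -0.0070, and the 2 groups alone gave -0.014 and -0.011. Leaving out 1 library gave Bub1 -0.082 to 0.083, Cdc25c -0.036 to 0.14 and Birc5 -0.076 to 0.053. In Prss57-/- mice Cdc25c was -0.0078 with RLE, -0.018 with library size, -0.0066 with DESeq2 and -0.089 with the length curve, Rrm1 was -0.29 with the length curve, and leaving out 1 library gave Bub1 -0.0013 to 0.21, Cdc25c -0.068 to 0.12 and Birc5 -0.23 to 0.13. For Prss57-/- against WT in CMPs, leaving out 1 library gave Prim1 -0.035 to 0.57 and Gins2 -0.094 to 0.59.

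For WT BMMC against WT GMP, library size alone gave -0.039 for Cenpe and -0.19 for Cenpf, the length curve -0.54 and -1.19, and Cenpf was -0.022 with voom and -0.010 with no filter. Leaving out 1 library gave Cenpe -0.014 to 0.36 and Cenpf -0.17 to 0.19. Against WT CMP, the length curve gave -0.35 for Mki67, -0.81 for Cenpf and -0.32 for Hmmr, library size gave -0.22 for Hmmr, and leaving out 1 library gave Kif23 -0.29 to 0.067 and Hmmr -0.070 to 0.32. The cause of these changes was not tested.

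Whether replicate numbers pair the libraries was not settled, and the main fits did not pair them. Same-numbered pairs correlated over 0.1 in 2 of 4 cases for WT GMP and CMP (from -0.20 to 0.50). This held for 3 of 4 for Prss57-/- GMP and CMP and for genotype in CMPs, 2 of 4 in GMPs and 1 of 5 in BMMCs. Same-numbered pairs averaged 0.18 for WT GMP and CMP, beside -0.10 for different numbers. For Prss57-/- GMP and CMP these were 0.29 and -0.10. For genotype they were 0.27 and -0.11 in CMPs, -0.05 and 0.03 in GMPs, and -0.09 and 0.04 in BMMCs. With the replicate block, 14 and 23 genes were called for GMP against CMP in WT and Prss57-/- mice, 44 and 45 for BMMCs, and 0 for genotype. In WT GMP against CMP the block fit also called Mki67, higher, and Pcna, lower. In Prss57-/- mice the block fit also called Kif11, Cenpf, Mki67, Top2a and Mcm10, higher, and no longer called Ccnb2 and Rfc4, lower. Voom without a block also called Cenpf, Mki67 and Top2a and did not call Rfc4. It did not call Kif11 or Mcm10, and it still called Ccnb2 lower. The block fit tested the same 15900 genes by edgeR as the main fit. In WT BMMC against CMP the block fit tested 15007 genes, as with the 2 groups alone, and not 16758. It also called Mki67, higher, and Top2a and Tpx2, lower. Voom without a block also called Top2a and Tpx2 lower, and the 2 groups alone without a block also called Top2a lower. The part of the block in these calls was not tested. With the block, Cenpf in BMMCs was -0.0015 against GMPs and Hmmr -0.054 against CMPs.

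The length slope differed between libraries of 1 group, and the number of libraries limits what can be seen for genes with wide spread such as Mki67. Intervals for small genotype differences were wide: in BMMCs the SE of Bub1 was 0.33.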
